A study of Mus musculus with 4 samples.

Results

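The transcripts described here encode chaperones and folding enzymes of the endoplasmic reticulum (ER), the compartment in which a hepatocyte folds the plasma proteins it secretes. They were chosen by name, with earlier results of these data known. Every probe of the deposited table annotated to Creld2, Manf, Sdf2l1, Hspa5, Hsp90b1, Hyou1, Pdia4, Pdia6, Calr or Dnajb9 and to no other gene was taken. Of these 10 genes, 9 had a probe, with 1 probe each, among 15478 probes and 9285 named genes. Calr is not analysed here.

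Livers of male B6/FVB mice, 7 to 8 weeks old and fed a selenium-sufficient diet, were compared on 2-colour arrays. Wild-type (Trsp) liver carried Cy3 and mutant liver Cy5. With the dyes assigned this way in every comparison, an effect of dye on a ratio to wild type cannot be told apart from one of genotype. The 4 comparisons with wild-type littermates were deposited as 1 column each, averaged by the authors over its animals, with 1 animal per array. DTrsp mice lacked Trsp, the gene of the selenocysteine tRNA, in the liver (4 animals). In A34 mice the transgene, at 2 copies, has T changed to A at position 34 of that tRNA (4 animals). In G37L mice it has A changed to G at position 37, again at 2 copies (4 animals), and G37H mice hold 16 copies of that same transgene (3 animals). The labels do not say whether the transgenic livers kept their own Trsp, whether comparisons share wild-type animals, or how many founders each transgenic line came from.

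Each value is a log ratio, read as log2 of mutant over wild type. The direction rests on the dye labels and is likely rather than stated, and with the ratio turned every value below changes sign. The base of the logarithm is likewise unstated, and if it were natural every fold change below would be larger. The spread between animals is not in the averages, so no SD, interval or p-value is given and no difference is set against replicate error. The number of arrays limits the precision. Over all genes the column medians were 0.16 for DTrsp, 0.07 for A34, -0.11 for G37L and -0.11 for G37H. The medians of 49 measured reference transcripts, mostly ribosomal and mitochondrial, were 0.58, 0.18, 0.30 and 0.12 in the same order. The decimals of some values in the table show an average over fewer arrays than the labels state, in 5.77% to 14.4% of probes per column, and 0 of the 9 chaperone values in any column are recognisably of that kind, though decimals cannot show every such average. The ratios hold no signal level, so the presence of liver markers could not be checked.

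Proteins that enter the ER are bound by BiP, the Hsp70 of this compartment, while disulfide isomerases pair their cysteines and lectin chaperones hold their glycans. When unfolded proteins accumulate, the sensors IRE1, PERK and ATF6 start the unfolded protein response, and ATF6 and XBP1, the factor made after IRE1 acts, raise transcription of most of the chaperones named above. PERK acts mainly through ATF4, which controls other genes. Liver secretes so much protein that it uses this response in normal life, for example after a meal or in inflammation. Selenocysteine tRNA decodes UGA in selenoprotein transcripts, and several selenoproteins themselves reside in the ER.

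The ER chaperones were higher in G37L than in wild type, and 8 of the 9 lay closer to it in each of the other lines, the exception being Pdia6, at 0.91 in G37L and 0.92 in G37H. In G37L, 8 of the 9 were higher by 2-fold or more and 0 were lower by as much, where 2.51% of all genes were as high and 3.96% as low. The median log2 ratio of the 9 was 1.62, a 3.07-fold ratio, against -0.11 for all genes. Pdia6 was the one short of 2-fold. Because the group was chosen with earlier results of these data known, the shares of all genes are a background and not a test. In DTrsp, A34 and G37H, 0 of the 9 were at least 2-fold higher or lower, beside 3.27%, 1.4% and 2.78% of all genes that were higher and 1.62%, 0.452% and 3.1% that were lower.

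**Figure D1:**
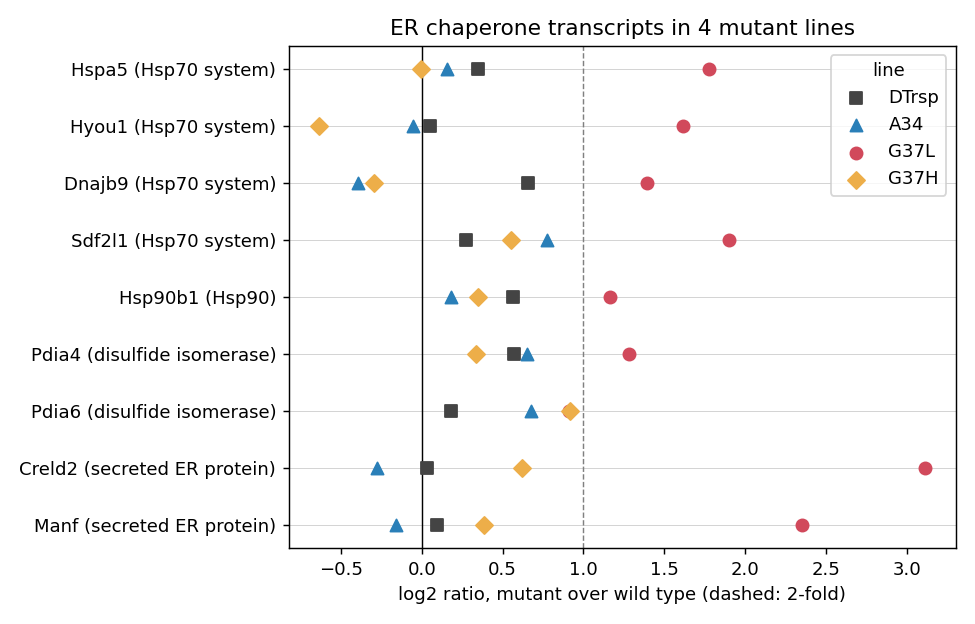
Log2 ratio of mutant over wild type (horizontal axis) for the 9 measured ER chaperones (rows, with their role), 1 point per line and no error bars because each point is the authors' average. The G37L points run from 0.91 to 3.11, and all but that of Pdia6 lie right of the dashed 2-fold line, which no other line's point passes.

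Many promoters of ER chaperones carry the ER stress response element, a CCAAT box and the sequence CCACG 9 bases apart, where the constitutive factor NF-Y and ATF6 bind. The promoters of the 4 measured chaperones that hold it in full are shown because the G37L values of these genes run from the highest to the lowest of the group. They are the 250 bases before the transcript start, 5′ to 3′ on the gene's strand, from RefSeq on build GRCm38.p6. Creld2 lies at chr15:88819396-88819645 on the plus strand, Hspa5 at chr2:34771840-34772089 on the plus strand, Hsp90b1 at chr10:86705445-86705694 on the minus strand and Pdia6 at chr12:17266339-17266588 on the plus strand. Capitals mark the letters of the element, which reads CGTGG then ATTGG where it lies on the opposite strand.
Creld2: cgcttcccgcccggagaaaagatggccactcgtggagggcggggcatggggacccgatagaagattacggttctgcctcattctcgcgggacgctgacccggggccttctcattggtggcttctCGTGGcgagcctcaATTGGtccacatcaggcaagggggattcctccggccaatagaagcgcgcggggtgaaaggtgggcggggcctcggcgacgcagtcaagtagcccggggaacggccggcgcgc
Hspa5: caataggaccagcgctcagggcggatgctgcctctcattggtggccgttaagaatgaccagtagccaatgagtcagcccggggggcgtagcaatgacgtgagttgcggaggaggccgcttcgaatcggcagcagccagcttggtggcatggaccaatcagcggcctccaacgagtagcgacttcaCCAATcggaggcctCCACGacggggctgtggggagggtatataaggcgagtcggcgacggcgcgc
Hsp90b1: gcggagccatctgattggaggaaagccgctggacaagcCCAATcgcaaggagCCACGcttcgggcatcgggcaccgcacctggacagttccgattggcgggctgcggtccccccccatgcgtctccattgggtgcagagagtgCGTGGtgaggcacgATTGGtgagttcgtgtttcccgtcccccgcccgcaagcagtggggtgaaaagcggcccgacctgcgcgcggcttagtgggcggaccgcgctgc
Pdia6: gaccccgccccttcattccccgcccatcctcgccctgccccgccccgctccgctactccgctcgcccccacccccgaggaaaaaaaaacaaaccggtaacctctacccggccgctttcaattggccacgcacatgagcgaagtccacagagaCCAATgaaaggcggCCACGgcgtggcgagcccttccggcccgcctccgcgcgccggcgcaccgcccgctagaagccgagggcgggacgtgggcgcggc

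The element was searched on both strands in windows from 250 bases before to 50 after each start. Of the 10 chaperone genes, 8 had a window, 7 of them measured, and Manf and Hyou1 had none. Creld2, Hspa5, Hsp90b1 and Pdia6, 4 of the 7, held the full element, Hsp90b1 at 2 places, against 37 of 27025 genes with a window (0.137%) and 14 of 7539 measured ones (0.186%). The unmeasured Calr held it as well. It lay 126 to 108 bases before the start in Creld2, 65 to 47 in Hspa5, 107 to 89 and 212 to 194 in Hsp90b1, and 98 to 80 in Pdia6. CCAAT and CCACG, counted singly and so including those within the element, were each in all 7 windows, and in those of 42.5% and 50.8% of measured genes and 41.1% and 35.5% of all genes with a window. TGACGTGG, which XBP1 can bind, was in 0 of 7, in 1.09% of measured genes and in 0.714% of all genes. The shorter TGACGT, which also occurs inside TGACGTGG, was in that of Hspa5 alone, in 13.1% of measured genes and in 8.37% of all genes. A match describes the letters of a window and is not evidence of binding. Since many promoters of ER chaperones are known to carry the full element, its share among these 7 is no independent observation.

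BiP and its partners form the largest functional group. For Hspa5, which encodes BiP itself, the log2 ratio was 1.78 in G37L, against 0.35 in DTrsp, 0.16 in A34 and -0.0036 in G37H. The G37L value is a 3.43-fold ratio at rank 42 of 9285 genes, and the other 3 lines lay within 0.35 of wild type. For Hyou1, a large Hsp70 relative that exchanges the nucleotide of BiP, the log2 ratio was 1.62 in G37L, against 0.05 in DTrsp, -0.06 in A34 and -0.63 in G37H. Hyou1 thus lay on opposite sides of wild type in the G37 lines, and -0.63 was the lowest value of any chaperone in any line. For Dnajb9, a J-domain protein that stimulates BiP and restrains IRE1, it was 1.39 in G37L, against 0.66 in DTrsp, -0.39 in A34 and -0.29 in G37H. Dnajb9 had the highest DTrsp value of the 9 and the lowest A34 value. For Sdf2l1, which works with BiP and the J-domain protein encoded by Dnajb11, it was 1.90 in G37L, against 0.27 in DTrsp, 0.78 in A34 and 0.55 in G37H. Sdf2l1 was positive in all 4 lines as deposited, but at -0.31 in DTrsp relative to the reference transcripts. Its A34 value was the highest of the group there.

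Creld2 and Manf encode small cysteine-rich proteins that are induced by ER stress and in part secreted. For Creld2 the log2 ratio was 3.11 in G37L, against 0.04 in DTrsp, -0.28 in A34 and 0.62 in G37H. At 8.66-fold it ranked 12 of 9285 genes in G37L. For Manf it was 2.35 in G37L, against 0.10 in DTrsp, -0.16 in A34 and 0.39 in G37H. At 5.12-fold Manf ranked 20. These genes had the highest G37L values of the group, while in DTrsp and A34 both were below the median of all genes.

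The remaining chaperones differed less between lines. For Hsp90b1, the Hsp90 of the ER, the log2 ratio was 1.17 in G37L, against 0.57 in DTrsp, 0.18 in A34 and 0.35 in G37H. For the disulfide isomerase Pdia4 it was 1.28 in G37L, against 0.57 in DTrsp, 0.65 in A34 and 0.34 in G37H. As deposited, both were above 0 in all 4 lines and past 2-fold in G37L. Relative to the reference transcripts, Hsp90b1 and Pdia4 were at -0.015 and -0.0093 in DTrsp. On that scale they were short of 2-fold in G37L, at 0.87 and 0.98. For Pdia6, another disulfide isomerase, it was 0.91 in G37L, against 0.18 in DTrsp, 0.68 in A34 and 0.92 in G37H. Pdia6 had the narrowest range over the lines, 0.74, against 3.39 for Creld2, and was the single chaperone not highest in G37L, by 0.0073.

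G37L had the highest value of the 4 lines in 8 of the 9 chaperones, and in 13.6% of all genes. Below it the order of the lines differed from gene to gene. As deposited, the second place went to DTrsp for Hspa5, Hyou1, Dnajb9 and Hsp90b1, to A34 for Sdf2l1 and Pdia4, and to G37H for Creld2 and Manf. Relative to the reference transcripts, A34 was second for Hspa5, at -0.02 against -0.23 in DTrsp, and for Hyou1, at -0.23 against -0.53. For Hsp90b1 it was G37H, at 0.23 against -0.015 in DTrsp, and also centred on all genes, at 0.46 against 0.41. The remaining second places did not depend on the centring. The gap from G37L to the next line was widest for Creld2, at 2.50, and Manf, at 1.97. It was 1.57 for Hyou1, 1.43 for Hspa5 and 1.12 for Sdf2l1, and under 2-fold for Dnajb9 at 0.73, Pdia4 at 0.63 and Hsp90b1 at 0.60. Centring took the gap of Dnajb9 to DTrsp just past 2-fold, at 1.006 on all genes and 1.02 on reference transcripts. Those of Pdia4 and Hsp90b1 stayed short of it under both centrings. Whether neighbouring values in these orders differ beyond the spread between animals cannot be said from averages.

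**Figure D2:**
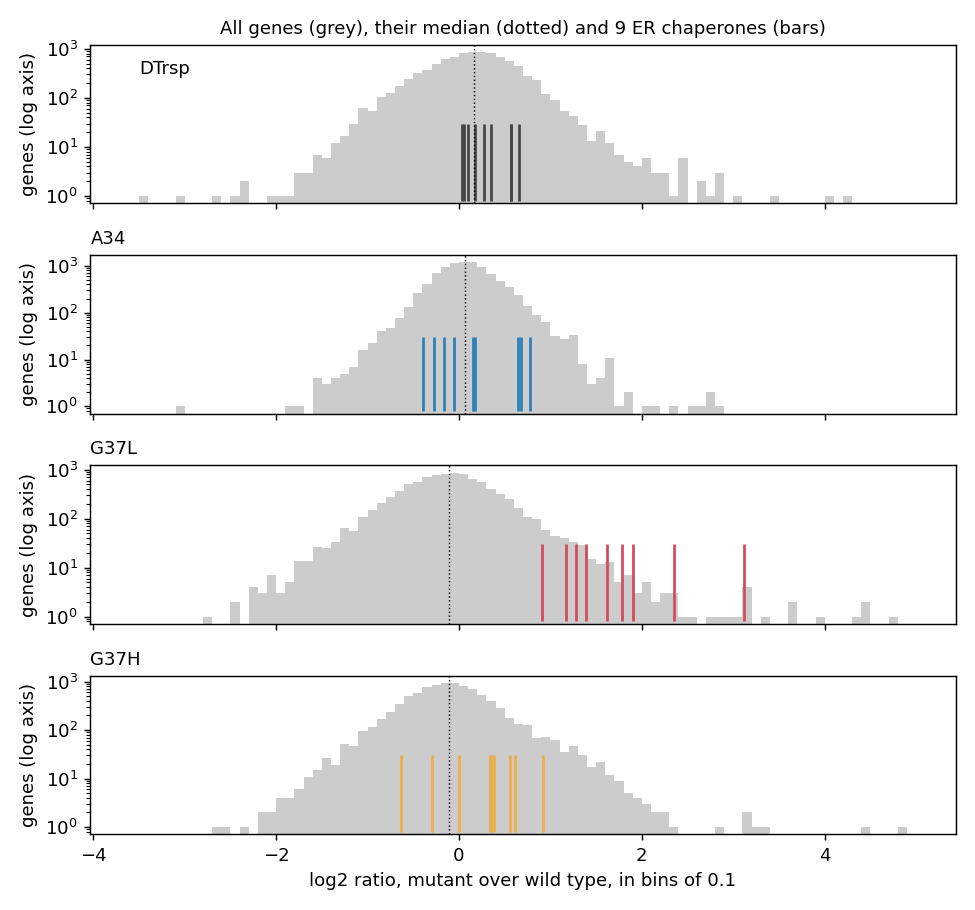
Number of genes (vertical log axis) by log2 ratio of mutant over wild type (horizontal axis, bins of 0.1) for all 9285 genes in grey, 1 panel per line, with the column median dotted and the 9 ER chaperones as coloured bars of arbitrary height. The bars stand in the right tail in G37L, between ranks 12 and 283. In the other panels their ranks spread more widely, from 1100 to 5661 in DTrsp, 313 to 8636 in A34 and 319 to 8258 in G37H. The top 5% of genes held 0 of them in DTrsp, 1 in A34 and 1 in G37H.

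Within each line the chaperones covered a different range. Their log2 ratios ran from 0.04 to 0.66 in DTrsp with a median of 0.27, from -0.39 to 0.78 in A34 with a median of 0.16, and from -0.63 to 0.92 in G37H with a median of 0.35. All 9 were above 0 in DTrsp, 5 in A34 and 6 in G37H, where 64.0%, 59.1% and 38.4% of all genes were. Set against the reference transcripts, the median turned to -0.31 in DTrsp and -0.02 in A34, stayed at 0.23 in G37H and was 1.32 in G37L, and 1, 4, 6 and 9 chaperones lay above the reference median in DTrsp, A34, G37H and G37L. In G37L 6 of the 9 were at least 2-fold above it, while Pdia4 at 0.98, Hsp90b1 at 0.87 and Pdia6 at 0.61 were not. The direction of the group in DTrsp and A34 therefore depends on the centring, and that in G37L did not under either centring. The shares of all genes above the reference medians, or at least 2-fold above them, are not given here.

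The G37 lines carry the same base change at different copy numbers. Subtracting G37H from G37L gene by gene gave a median of 1.68 over the chaperones, with 8 of 9 above 0 and 6 at least 2-fold higher in G37L, against 2.67% of all genes, while 0 of 9 and 4.07% of all genes were as much lower. The largest differences were 2.50 for Creld2, 2.25 for Hyou1, 1.97 for Manf, 1.78 for Hspa5, 1.68 for Dnajb9 and 1.35 for Sdf2l1. For Pdia4 and Hsp90b1 they were 0.94 and 0.82, and for Pdia6 it was -0.0073. The line with 2 copies was thus the one farther from wild type for 8 of the 9.

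**Figure D3:**
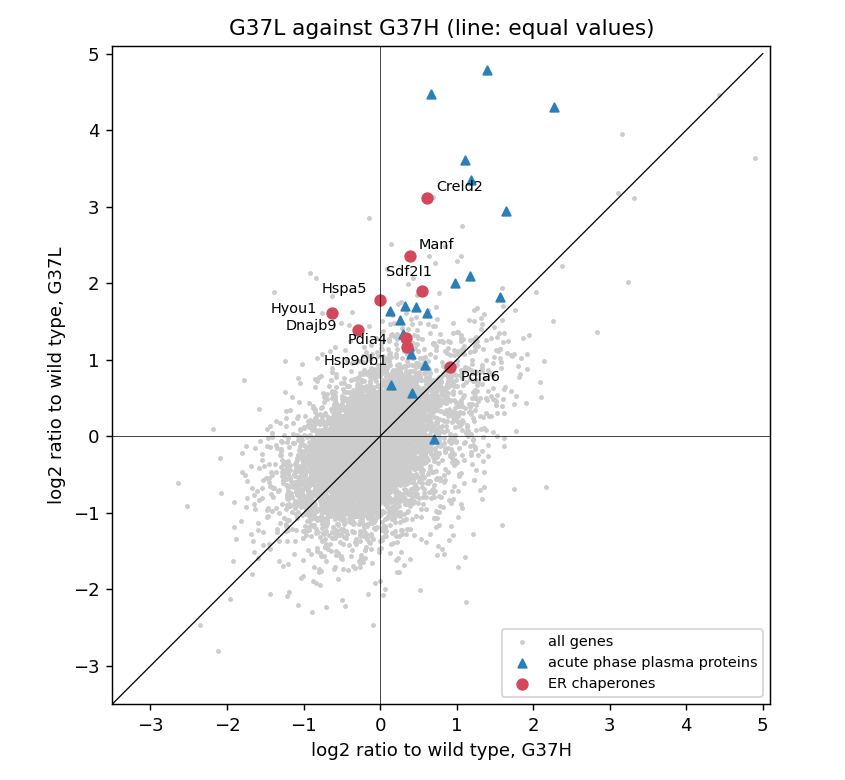
Log2 ratio to wild type in G37H (horizontal) against G37L (vertical), 1 point per gene, with all genes in grey, 9 ER chaperones in red and 21 acute phase plasma protein genes as blue triangles; the diagonal marks equal values. The chaperones lie above the diagonal except Pdia6, which lies on it, and Hyou1, Dnajb9 and Hspa5 lie left of 0 in G37H.

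A34 and G37L both carry 2 transgene copies and differ in the base changed. The median of G37L minus A34 over the chaperones was 1.62, with all 9 above 0 and 6 at least 2-fold higher in G37L, beside 2.55% of all genes, and 0 lower beside 7.07%. Creld2 differed by 3.39, Manf by 2.52, Dnajb9 by 1.78, Hyou1 by 1.67, Hspa5 by 1.62 and Sdf2l1 by 1.12. Hsp90b1 at 0.99, Pdia4 at 0.63 and Pdia6 at 0.23 completed the order. Against the knockout, G37L minus DTrsp had a median of 1.43, with 5 of 9 at least 2-fold higher beside 3.96% of all genes, and 0 lower beside 10.1%. The 5 were Creld2 at 3.08, Manf at 2.26, Sdf2l1 at 1.63, Hyou1 at 1.57 and Hspa5 at 1.43. Among the other 3 lines the medians were 0.10 for G37H minus A34, -0.22 for G37H minus DTrsp and -0.19 for A34 minus DTrsp. None of these had a chaperone at least 2-fold higher in the line named first, beside 2.72%, 4.26% and 4.48% of all genes, and the median of G37H minus DTrsp turned positive under both centrings and that of A34 minus DTrsp under centring on reference transcripts. Dnajb9 in A34 minus DTrsp was at -1.05, the 1 chaperone value at least 2-fold lower in these 3 differences, where 5.63% (G37H minus A34), 8.93% (G37H minus DTrsp) and 4.09% (A34 minus DTrsp) of all genes were. It was short of 2-fold at -0.96 centred on all genes and -0.64 on reference transcripts. Centring also took some values past 2-fold: Creld2 in G37H minus A34 was at 1.08 centred on all genes, and in G37H minus DTrsp Pdia6 was at 1.01 on all genes and 1.20 on reference transcripts, where Creld2 was at 1.04. Of the differences from G37L, the 5 at least 2-fold against DTrsp became 7 under both centrings, with Dnajb9 and Pdia6 at 1.02 on reference transcripts, and the 6 against A34 became 7 centred on all genes. Shares of all genes for these centred differences are not given here.

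Other genes of the ER were examined in lists that do not hold the 9 chaperones. Among 34 measured ER folding factors, 5 were at least 2-fold higher in G37L and 0 lower, beside 2.51% and 3.96% of all genes, with a median of 0.46. They were the prolyl isomerase Fkbp11 at 2.18, the BiP partner Dnajb11 at 1.73, the disulfide isomerase Pdia3 at 1.35, the Hsp70 relative Hspa13 at 1.08 and the disulfide isomerase Pdia5 at 1.001, the last chosen after its value was seen. Of these, Dnajb11 was at 0.92 in DTrsp, 0.51 in A34 and 0.23 in G37H, and Fkbp11 at 0.78, 0.10 and 0.09. Hspa13 did not follow the chaperones, with 2.33 in DTrsp, -0.63 in A34 and -0.11 in G37H. In DTrsp 3 of the 34 were at least 2-fold higher, beside 3.27% of all genes, among them Creld1 at 1.22 and the disulfide isomerase P4hb at 1.06. In A34 it was 1, the glucosidase subunit Ganab at 1.26, and in G37H 0, beside 1.4% and 2.78% of all genes. The list medians there were 0.34, 0.14 and 0.06.

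The machinery that brings proteins into the ER and glycosylates them, 27 measured genes of the translocon, signal peptidase and oligosaccharyltransferase, had a median of 0.63 in G37L, with 4 higher and 1 lower by at least 2-fold. Of all genes, 2.51% were as high in G37L and 3.96% as low. The oligosaccharyltransferase subunit Ostc was at 1.65, the translocon subunit Sec61g at 1.14 and the translocon-associated Ssr3 at 1.03, with Spcs2 of the signal peptidase, chosen after its value was seen, at 1.02. The lower gene was Stt3a, a catalytic subunit of oligosaccharyltransferase, at -1.56. In DTrsp 3 of this list were at least 2-fold higher, beside 3.27% of all genes, namely Stt3b at 1.56, Ostc at 1.34 and Spcs2 at 1.09. In A34 and G37H 0 were at least 2-fold apart, beside 1.4% and 2.78% of all genes higher and 0.452% and 3.1% lower. The list medians in DTrsp, A34 and G37H were 0.41, 0.09 and 0.23.

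ER-associated degradation returns misfolded proteins to the cytosol for the proteasome. Of its 23 measured genes 1 was at least 2-fold higher in G37L, beside 2.51% of all genes. This was the ubiquitin ligase Syvn1 at 1.76, and the list median was 0.15. Edem3, which trims glycans of misfolded proteins, followed at 0.90 and Ube2g2 at 0.66. The medians were 0.32 in DTrsp, 0.26 in A34 and 0.02 in G37H. In DTrsp the ATPase Vcp was at 1.10 and the lectin Os9 at -1.07, and in A34 the ER membrane protein Herpud1 was at 1.28. The 29 measured genes of ER to Golgi transport had a median of 0.44 in G37L, with 1 at least 2-fold higher, again beside 2.51% of all genes. It was the cargo adaptor Tmed9 at 1.20, followed by Tmed3 at 0.91 and Tmed2 at 0.90. The transport medians were 0.37 in DTrsp, 0.09 in A34 and 0.04 in G37H. In A34 Tmed2 was at 1.30 and Mia2, which loads large cargo, at 1.04, while in DTrsp Mia2 was at -1.50.

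**Figure D4:**
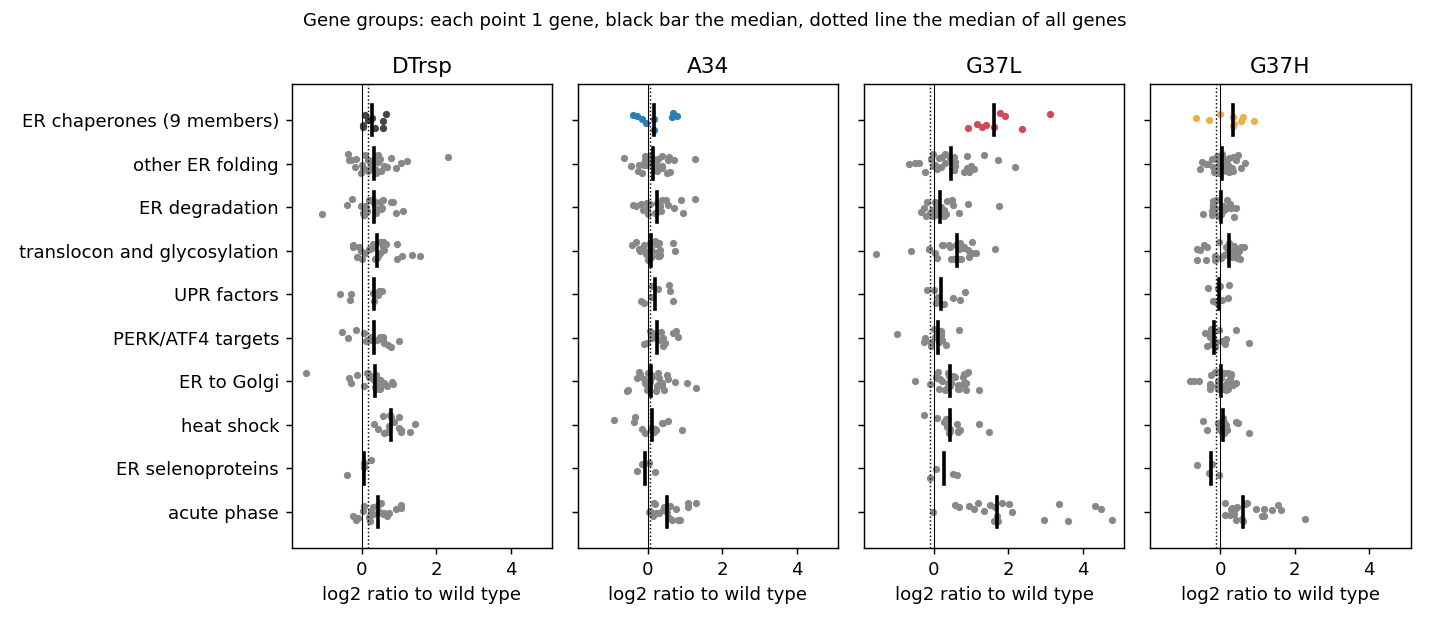
Log2 ratio to wild type (horizontal axis) for each measured gene of 10 groups (rows; UPR is the unfolded protein response), 1 panel per line, with the group median as a black bar and the median of all genes dotted. In G37L the ER chaperones and the acute phase plasma proteins have medians of 1.62 and 1.68, and the other groups lie between 0.11 and 0.63.

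The sensors and transcription factors of the unfolded protein response, 8 genes measured, had 0 members at least 2-fold apart in any line. Of all genes, 2.51% were at least 2-fold higher in G37L and 3.96% lower. In G37L Eif2ak3, which encodes PERK, was at 0.85, Creb3 at 0.69, Atf6b at 0.51 and the liver factor Creb3l3 at 0.26, with Ern1, which encodes IRE1, at -0.20, chosen after its value was seen. Xbp1 was not analysed here. The 16 measured targets of PERK and ATF4 had a median of 0.11 in G37L, with 0 at least 2-fold apart. Ppp1r15a, the phosphatase subunit that ends PERK signalling, was at -0.98, the stress gene Sesn2 at 0.68 and the amino acid transporter subunit Slc3a2 at 0.32. In G37L Atf4 was at 0.13 and Ddit3, which encodes CHOP, at -0.01, and both were chosen with their values known. In the other lines the medians of this list were 0.34 in DTrsp, 0.25 in A34 and -0.16 in G37H. In these lines 1 gene was at least 2-fold higher, Eif4ebp1 in DTrsp at 1.01, where 3.27% of all genes were.

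Relative to the reference transcripts, the medians in G37L were 0.33 for the translocon list, 0.17 for the other folding factors and 0.14 for transport, but -0.12 for the sensors and factors, -0.15 for degradation and -0.19 for PERK and ATF4 targets. In DTrsp all 6 of these medians were below 0 on that scale, from -0.26 to -0.17.

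Chaperones of the cytosol and mitochondria had another order of lines. The 15 measured had their highest median in DTrsp, at 0.80, with 6 at least 2-fold higher, against 0.43 in G37L with 2, Hsp90aa1 at 1.47 and Hsph1 at 1.21. Of all genes, 3.27% were as high in DTrsp and 2.51% in G37L. The list medians were 0.12 in A34 and 0.06 in G37H. Relative to the reference transcripts they were 0.22 in DTrsp, 0.13 in G37L, -0.06 in A34 and -0.06 in G37H. The 4 measured ER selenoproteins had medians of 0.28 in G37L, against 0.07 in DTrsp, -0.07 in A34 and -0.25 in G37H, with Selenok at 0.61 and Selenos at 0.50 in G37L.

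Acute phase plasma proteins, which hepatocytes secrete through the ER in inflammation, were also higher in G37L. Of 21 measured, 17 were at least 2-fold higher in G37L with a median of 1.68, and 7 in G37H with a median of 0.61, against 2 in DTrsp and 3 in A34 with medians of 0.45 and 0.52. Of all genes, 2.51% were as high in G37L, 2.78% in G37H, 3.27% in DTrsp and 1.4% in A34. Relative to the reference transcripts, the acute phase medians were 1.39 in G37L, 0.49 in G37H, 0.34 in A34 and -0.13 in DTrsp. Markers of other liver cells were also read beside the chaperones, and in whole liver fewer cells of a type and less RNA per cell cannot be told apart. In G37L 13 of 13 measured Kupffer cell and macrophage markers were above 0, from 0.17 to 1.60 with a median of 0.72, and 4 were at least 2-fold higher, Mpeg1 at 1.60 and Clec4f at 1.24 among them. Their medians in DTrsp, A34 and G37H were 0.36, 0.60 and 0.48. Of all genes, 39.4% were above 0 in G37L and 2.51% were at least 2-fold higher, and 39 of 49 reference transcripts were above 0. Relative to the reference transcripts, the macrophage medians were close in 3 lines, at 0.43 in G37L, 0.42 in A34 and 0.36 in G37H, and -0.23 in DTrsp. The 3 measured neutrophil markers ran from -0.89 for Csf3r to 1.23 for S100a8 in G37L, and the 18 hepatocyte markers had a median of 0.39. The part of inflammation and of macrophage RNA in the chaperone values was not tested. All 4 measured plasma cell markers were below 0 in G37L, from -1.04 for Ighm to -0.21 for Mzb1, and in G37H, from -0.81 to -0.40, where 60.6% and 61.6% of all genes were below 0. Their median was 0.02 in DTrsp and 0.42 in A34, where Ighm was at 2.67. The medians in G37L were -0.60 for 3 lymphocyte markers, 0.05 for 8 stellate cell and fibroblast markers, 0.03 for 9 endothelial markers and -0.32 for 2 cholangiocyte markers.

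The genes nearest to the chaperones' median profile over the 4 columns were found by Euclidean distance in log2 units. The 10 nearest genes outside the group were Fgb, S100a11, Fgg, Il33, Litaf, Tmem65, Abhd8, H3c2, Qtrt1 and Fga, at distances from 0.19 to 0.42. The fibrinogen chains Fga, Fgb and Fgg, acute phase plasma proteins, were at 1.61, 1.51 and 1.68 in G37L, at 0.57, 0.30 and 0.46 in DTrsp, at 0.31, 0.02 and 0.15 in A34 and at 0.61, 0.26 and 0.47 in G37H. S100a11, a calcium-binding protein, was at 1.62 in G37L and at most 0.34 from 0 in the other lines. H3c2 belongs to a family of nearly identical histone genes, so its probe may read others. The chaperones themselves lay from 0.39 (Hspa5) to 1.60 (Creld2) away from their median profile, and 2229 other genes were nearer than Creld2. By Pearson correlation over the 4 columns, 0 of these 10 genes were among the 10 highest, and 35 genes had r of 0.99 or more, which shows how little 4 points separate genes.

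The full ER stress response element was also upstream of 10 measured genes that are not among the chaperones. Those on the ER lists, chosen by the element and not by their values, are shown to set the same letters beside other ratios. The 4 genes are 3.51% of the 114 measured genes of 6 ER lists that had a window. Each element is read from CCAAT to CCACG, with capitals for the letters searched: Syvn1 at chr19:6046532-6046550, Ero1b at chr13:12565682-12565700, Dnajc3 at chr14:118937827-118937845 and Canx at chr11:50325800-50325818, from RefSeq on build GRCm38.p6.
Syvn1: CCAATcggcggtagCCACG
Ero1b: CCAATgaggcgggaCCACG
Dnajc3: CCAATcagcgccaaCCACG
Canx: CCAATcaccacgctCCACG

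In G37L, Syvn1 was at 1.76 and Ero1b, an oxidase that drives disulfide formation, at 0.94. Dnajc3, a J-domain co-chaperone of BiP, was at 0.13 and the lectin chaperone Canx, calnexin, at -0.25 with the same spacing of letters. Of the other 6 genes, also chosen by the element, Acacb was at 0.97, Acnat2 at 0.78, Adcy3 at 0.47, Ptgdr2 at 0.01, Hnrnpa3 at -0.06 and Pan2 at -0.39. The median of these 10 genes in G37L was 0.30, with 1 at least 2-fold higher, against -0.11 for 7522 genes without the element, of which 2.25% were. In DTrsp, A34 and G37H the median of the 10 was -0.01, -0.04 and -0.03. Among the chaperones, Sdf2l1 at 1.90, Dnajb9 at 1.39 and Pdia4 at 1.28 in G37L had no full element in their windows, and all 3 lay above Hsp90b1 and Pdia6, which hold it.

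**Figure D5:**
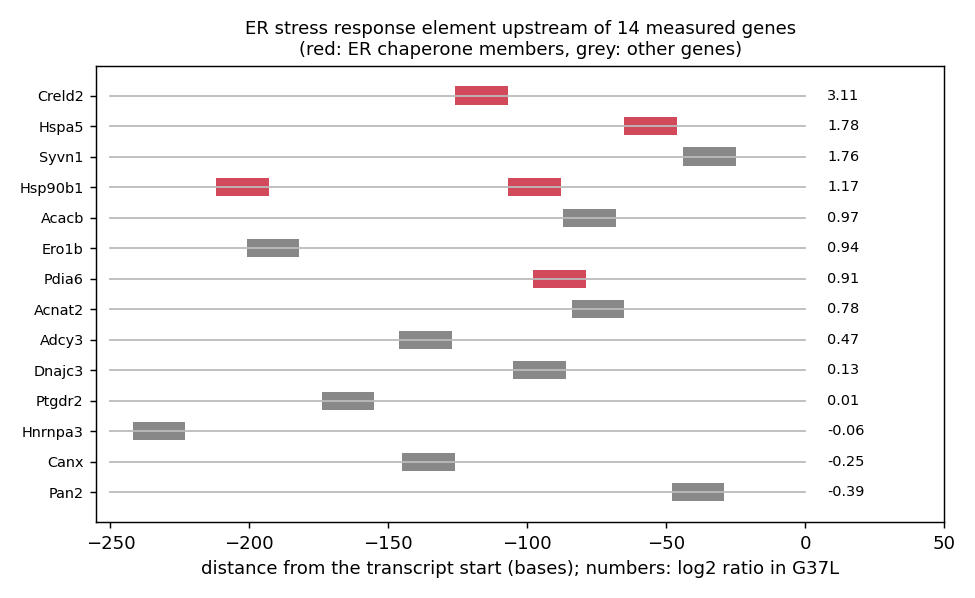
Position of the ER stress response element (blocks, horizontal axis in bases before the transcript start) in the 14 measured genes that hold it in full, red for ER chaperones and grey for other genes, ordered by the log2 ratio in G37L printed at the right. The 15 elements lie between 242 and 26 bases before the start, and the G37L ratios run from 3.11 for Creld2 to -0.39 for Pan2.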

How the data were processed

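Deposited values were log ratios (read as log2) from 2-colour liver arrays, already averaged over animals by the authors, per the labels. Their normalization, background correction and spot filter are not given by the sources at hand. The platform annotation's gene identifiers, matched to RefSeq (GRCm38.p6), named 12984 of 15478 probes, and 63 kept the annotation's symbol, while 110 with several genes and 2321 not listed were left unnamed. Probes of a gene were averaged. A gene was counted at a log2 ratio of at least 1 (2-fold) from 0, and no test was run. Lines were compared by subtraction. The members and lists were chosen with earlier results of these data known. Named genes are all members, up to 4 genes per list (2 for cell types) with values farthest from 0 in the line described, and the 10 genes nearest in profile. Older symbols were updated through RefSeq synonyms. Alternatives were centring, probe summary, scaling, threshold, base of the logarithm and leaving out values averaged over fewer arrays. Averages over fewer arrays were recognised from the fraction of a 4-decimal step, with a tolerance of 0.01 step. Counting and motif searches were tested on simulated data. Protein sequences were not used here. Python 3.11.15, pandas 2.3.3, numpy 2.4.6 and matplotlib 3.10.9 were used.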

Additional observations from a re-analysis of the deposited data

Results flagged for a closer look

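Several chaperones lay on opposite sides of wild type in a pair of lines while at least 2-fold apart; none of these differences was tested, since each line has 1 averaged value. Between G37L and A34 these were Creld2, with a difference of 3.39, Manf at 2.52, Dnajb9 at 1.78 and Hyou1 at 1.67. Between G37L and G37H they were Hyou1 at 2.25, Hspa5 at 1.78 and Dnajb9 at 1.68. Between A34 and DTrsp, Dnajb9 differed by -1.05, but by -0.96 centred on all genes and -0.64 on reference transcripts, both short of 2-fold. The G37H value of Hspa5 was -0.0036, so its side of 0 is not settled, and of these G37H values only those of Hyou1 and Dnajb9 were below the column median of -0.11. The share of all genes on opposite sides of 0 and at least 2-fold apart is not given here, so these flags have no baseline.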

How the results depend on the processing

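The median over the 9 chaperones stayed the highest of the lines in G37L under centring on all genes, centring on reference transcripts and scaling. Centred on all genes, the medians were 0.12 for DTrsp, 0.085 for A34, 1.73 for G37L and 0.46 for G37H, and median differences were 1.70 for G37L minus DTrsp, 1.81 for G37L minus A34, 0.29 for G37H minus A34, 0.052 for G37H minus DTrsp and -0.10 for A34 minus DTrsp. Chaperones at least 2-fold higher then numbered 9 in G37L and 1 in G37H, Pdia6. Centred on reference transcripts, the medians were -0.31, -0.021, 1.32 and 0.23 in DTrsp, A34, G37L and G37H, and 6 stayed at least 2-fold higher in G37L. The differences were 1.72, 1.503 and 1.51 for G37L minus DTrsp, A34 and G37H, 0.16 for G37H minus A34, 0.24 for G37H minus DTrsp and 0.21 for A34 minus DTrsp. With each column scaled to DTrsp's median absolute deviation, the medians were 0.23 in A34, 1.61 in G37L and 0.38 in G37H, 1 chaperone was at least 2-fold higher in A34 and 1 in G37H, and differences were 1.55 and 1.71 for G37L minus A34 and G37H, 0.023 for G37H minus A34, -0.19 for G37H minus DTrsp and -0.13 for A34 minus DTrsp. At a 1.5-fold threshold the counts were 1 for DTrsp, 3 for A34, 9 for G37L and 2 for G37H, and at 3-fold 5 in G37L. Read as natural logarithms they were 9 in G37L, 1 in A34, 1 in G37H and 0 in DTrsp. The shares of all genes under these centrings, scaling, thresholds and base are not given here, so these counts have no baseline. With 1 probe per chaperone, the median of probes, single probes and members with 1 probe gave the same values by construction. Leaving out values whose decimals show fewer arrays tested nothing, since 0 chaperone values were of that kind, and an average over fewer arrays cannot be recognised where its decimals could also come from all arrays. Centring the differences of single chaperones between lines was an alternative chosen after seeing the data. No paired analysis was possible because each line has 1 averaged column, and for the same reason no animal could be left out. Signal over background was not used here, so its limit on single values is unknown.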

Other observations

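Searched with up to 1 letter other than the 10 named, an alternative chosen after seeing the data, the ER stress response element was in the windows of 5 of 7 measured chaperones, Pdia4 joining the 4, and in 1.72% of all genes with a window. The 170 measured non-members holding this looser form had a median of -0.06 in G37L, and 5.29% were at least 2-fold higher, against -0.11 and 2.19% of 7362 without it. The 82 measured non-members with TGACGTGG had a median of -0.01 in G37L, with 2.44% at least 2-fold higher, against -0.11 and 2.26% of 7450 without it.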
